A study of Mus musculus with 10 samples.

Results

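The genes described here are those of cholesterol synthesis and of its control by the transcription factor SREBP2, in cultured peritoneal macrophages of mice. They were taken from a list of 28 genes, and a gene was used where at least 5 libraries held a CPM (counts scaled to library size) of at least 1. All 28 were found among the 53465 genes of the table, and all 28 passed in every library of both genotypes, so none entered through 1 genotype alone. Bulk RNA was sequenced from 5 libraries of control mice (CTR) and 5 of Mac-GsαKO mice (KO), which per their name lack Gsα, the stimulatory G protein subunit encoded by Gnas, in macrophages. Mice of both genotypes were 6 to 8 weeks old, and their cells were kept in serum-containing medium with no added treatment. The sources used here do not give the promoter that drives the deletion, the strain, any allele that the controls carry, or whether each library came from a separate mouse. Errors and p-values therefore measure the spread between these libraries. In this bulk RNA, fewer cells of a type and less RNA per cell cannot be told apart.

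Cells build cholesterol from acetyl-CoA by way of mevalonate, isoprenoid units, squalene and lanosterol. SREBP2 is held in the endoplasmic reticulum by Scap and the Insig proteins while sterols are plentiful. When sterols run low, Scap carries it to the Golgi, where the proteases encoded by Mbtps1 and Mbtps2 release the part that switches on the enzyme genes, and also Srebf2 and Insig1. In macrophages, cholesterol taken up from lipoproteins lowers this programme, and the foam cells of atherosclerotic vessels are macrophages overloaded with such cholesterol.

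Library totals ranged from 15664243 to 19235777 counts, and the members held between 99 and 4437 counts in a library. Gnas had 359 to 491 CPM in CTR and 37 to 43.5 CPM in KO, so every library matched its label. In the main fit 13203 genes were tested, and 3.94% of them were called (edgeR quasi-likelihood test, adjusted p under 0.05), with 46.3% of the calls higher in KO, or 59.4% with library-size scaling. CTR 4, CTR 5 and KO 5 stood apart and are named beside the results they touch. Over all genes CTR 4 and CTR 5 were the farthest from KO, both at -34.7 on the first principal component. KO 5 stood apart in the genes described here, and over all genes it lay at 11.6 on that component, between CTR and the other KO libraries. The 8 core macrophage genes were all tested, and they summed to 30000 to 38400 CPM in CTR and 14600 to 16100 CPM in KO. Lyz2, which makes up most of that sum, fell in the edgeR test, while Csf1r and Itgam rose, and their part in the members' values was not tested. Marker lists of B, T and NK, mast and dendritic cells each summed to at most 29.9 CPM in any library, those of neutrophils to at most 123 CPM, and those of mesothelial cells and fibroblasts to at most 110 CPM. Of the 3 neutrophil genes tested, S100a8 fell (log2 fold change -0.56, edgeR adjusted p = 0.0443). Mmp8 had -0.66 (edgeR adjusted p = 0.119). Retnlg had -0.13 (edgeR adjusted p = 0.919), with its highest value, 11.5 CPM, in KO 3. The part of these genes in the members' values was not tested.

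The promoters of 6 members are shown as examples. Srebf2 encodes the factor itself, and Hmgcs1, Cyp51 and Hsd17b7 moved with it between libraries. Nsdhl and Tmem97 had the lowest p among the members with lower values in KO. Not shown are Lss, Lbr and Sc5d, which correlated with Srebf2 more than Hmgcs1 and Cyp51 did, and Mbtps1, which had a lower p than Nsdhl. Hmgcs1 and Hsd17b7 are among only 4 of 24 members that hold the pattern TCACNNCAC, so the examples are not typical in this. Each sequence is the 150 bases before the RefSeq start on GRCm38.p6, read 5′ to 3′ along the gene's strand. Capitals mark CCAAT or its reverse ATTGG, the box bound by NF-Y, and TCACNNCAC, a loose form of the sterol regulatory element that SREBP2 binds.
Srebf2 (chr15:82147119-82147268, plus strand): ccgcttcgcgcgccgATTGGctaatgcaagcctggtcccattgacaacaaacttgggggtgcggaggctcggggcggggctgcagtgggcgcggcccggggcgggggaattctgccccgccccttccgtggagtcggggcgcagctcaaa
Hmgcs1 (chr13:119690201-119690350, plus strand): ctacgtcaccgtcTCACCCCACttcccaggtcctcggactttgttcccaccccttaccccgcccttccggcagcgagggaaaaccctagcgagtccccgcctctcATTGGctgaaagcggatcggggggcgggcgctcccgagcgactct
Cyp51 (chr5:4104698-4104847, minus strand): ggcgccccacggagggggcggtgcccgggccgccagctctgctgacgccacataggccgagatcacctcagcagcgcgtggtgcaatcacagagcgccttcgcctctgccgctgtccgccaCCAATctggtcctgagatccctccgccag
Hsd17b7 (chr1:169969206-169969355, minus strand): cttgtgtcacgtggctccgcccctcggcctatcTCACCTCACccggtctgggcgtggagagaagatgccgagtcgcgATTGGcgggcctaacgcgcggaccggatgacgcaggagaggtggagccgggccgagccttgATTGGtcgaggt
Nsdhl (chrX:72918371-72918520, plus strand): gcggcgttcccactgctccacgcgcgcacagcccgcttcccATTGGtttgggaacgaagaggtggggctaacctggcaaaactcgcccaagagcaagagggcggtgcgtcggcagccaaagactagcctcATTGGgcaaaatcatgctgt
Tmem97 (chr11:78550736-78550885, minus strand): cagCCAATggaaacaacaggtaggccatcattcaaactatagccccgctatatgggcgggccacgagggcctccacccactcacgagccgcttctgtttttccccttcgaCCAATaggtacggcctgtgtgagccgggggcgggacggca

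The RefSeq table, whose windows run from 250 bases before the start to 50 after it, held 24 of the 28 members. Fdps, Fdft1, Sqle and Stard4 were not among them. CCAAT was found, on either strand and in any window of a gene, in 20 of the 24 members and in 41.06% of all genes in the table. The GC box GGGCGG was found in 21 of 24, against 38.2% of all genes. TCACNNCAC was found in 4 of 24 (Hmgcs1, Msmo1, Hsd17b7 and Dhcr7), against 4.37%, and in Msmo1 its first letter is the last letter of a CCAAT. The E-box CACGTG was found in 5 of 24, against 8.09%. A stricter form, with A before these letters and C in place of the second N, was found in 0 of 24, against 0.27%, and the cAMP response element TGACGTCA in 0 of 24, against 2.03%. These are matches of letters, not shown to be bound, and the loose pattern was chosen after several had been tried. The shares of all genes cover 27025 genes, expressed here or not, while all members were expressed. A comparison with expressed genes alone was not made.

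Compared per gene length, on the FPKM scale of the authors, Srebf2, Insig1, Mvd, Hmgcs1 and Tmem97 stood highest. Srebf2 led with 39.3 ± 6.52 FPKM in CTR and 44.9 ± 3.98 FPKM in KO (mean ± SD, n = 5 libraries each, as for all such values). Insig1, which encodes the sterol-regulated retention protein, followed with 29.8 ± 3.09 FPKM in CTR and 33.4 ± 8.45 FPKM in KO. Mvd, the mevalonate diphosphate decarboxylase, had 28.1 ± 3.69 FPKM in CTR and 28.6 ± 4.88 FPKM in KO. Hmgcs1, which makes HMG-CoA, had 22.5 ± 4.52 and 24.1 ± 6.18 FPKM. Tmem97, a membrane protein gene regulated by sterols, had 25.2 ± 2.72 FPKM in CTR and 19.3 ± 1.34 FPKM in KO. Insig1 and Mvd are neighbours in this order whose levels lay within each other's spread, as did those of Hmgcs1 and Tmem97 in CTR. In KO the mean of Tmem97 lay within the SD of Hmgcs1, but not the reverse. At the lower end stood Ggps1, which makes the geranylgeranyl donor of protein prenylation, with 1.09 ± 0.117 FPKM in CTR, and the sterol reductase gene Tm7sf2 with 1.27 ± 0.316 FPKM in CTR. These FPKM rest on the lengths the authors used, which come out at 18461 bases for Lss, the lanosterol synthase gene, and 1375 bases for Tmem97.

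**Figure D1:**
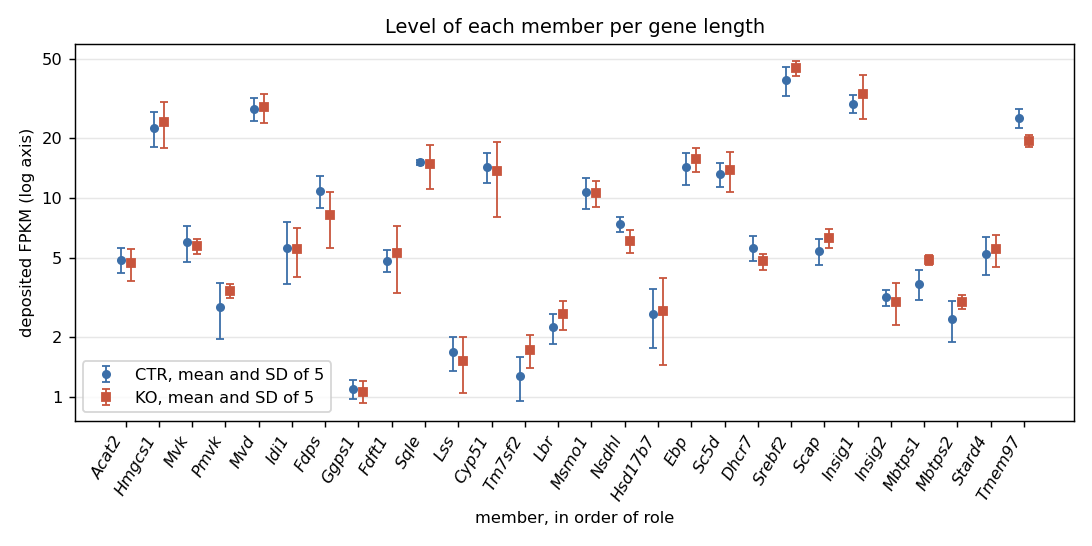
Deposited FPKM (log axis) of the 28 members in order of role, as the mean and SD of 5 CTR (circles) and 5 KO libraries (squares). Srebf2 and Insig1 stand highest and Ggps1 lowest, and the genotypes' error bars overlap for most members but not for Tmem97 and Mbtps1.

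Set against CTR, 1 of the 28 members passed the test in KO. Tmem97 fell, against 2.11% of all genes called lower, and none was called higher, against 1.83%. At an unadjusted p under 0.05, where 21.9% of all genes lay, edgeR had 4 members lower (Fdps, Nsdhl, Dhcr7 and Tmem97), against 11.9% of all genes, and 1 higher (Mbtps1), against 10%. DESeq2 called Mbtps1 higher, against 4.54% of all genes, and Nsdhl and Tmem97 lower, against 5.23%. The quality weights of voom were 0.258 for CTR 4 and 0.346 for CTR 5, against 0.807 to 1.88 for the other libraries. With voom, Pmvk, Tm7sf2 and Mbtps1 were called higher, against 7.77% of all genes, and Nsdhl, Dhcr7 and Tmem97 lower, against 6.76%. These counts lie near the shares of all genes. In value 14 members were higher and 14 lower, beside 50.8% of all genes lower, and the median log2 fold change was 0, beside -0.006 over all genes tested. This even split depended on single KO libraries, in both directions. Without KO 5, 20 members were lower, with a median of -0.104, and 3 were called lower, against 2.17% of all genes. Without KO 2, 10 members were lower, with a median of 0.066. That fit called 0 members lower, and only 30 of all 13337 genes tested. The 95% intervals of the 28 log2 fold changes lay between -0.86 and 0.82 (edgeR), which is the size of change these libraries leave possible.

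**Figure D2:**
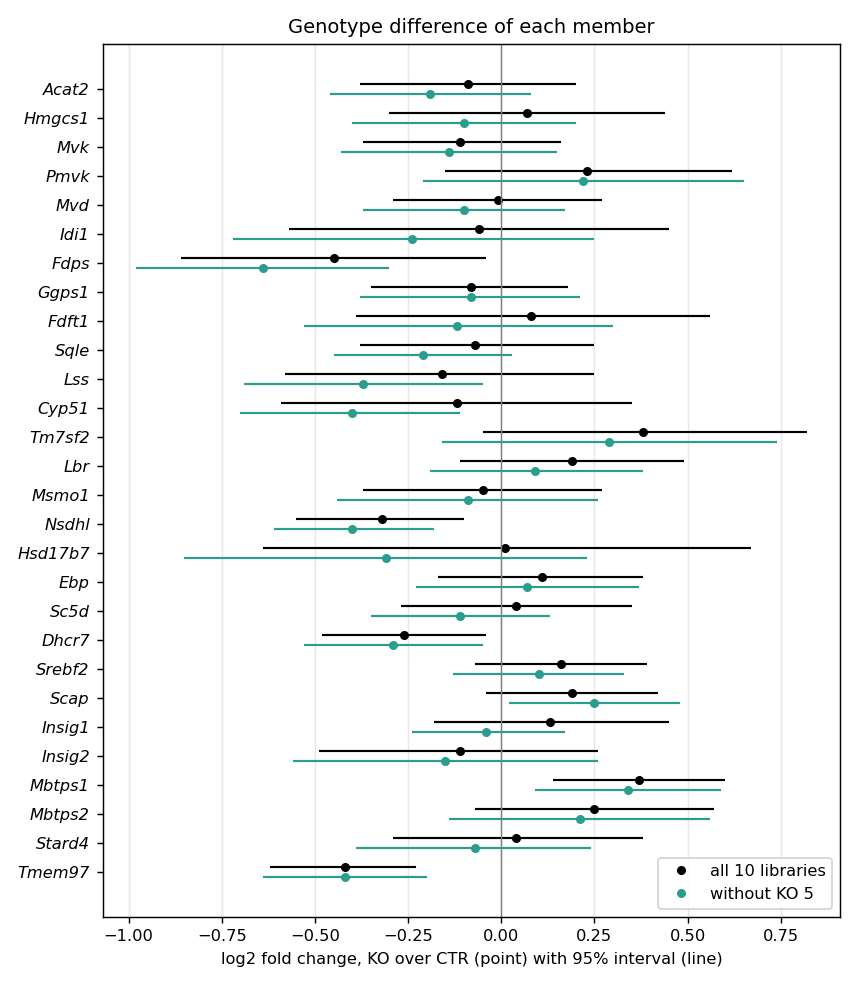
Log2 fold change of each member, KO over CTR (point), with its 95% interval (line), from all 10 libraries in black and without KO 5 in green. Tmem97 lies below 0 in both, and the green points of Fdps, Lss, Cyp51, Hsd17b7 and Sqle lie to the left of the black ones.

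Tmem97 (ENSMUSG00000037278) separated the genotypes. Its CPM was 31.8, 32.7, 37.2, 34.8 and 39 in CTR 1 to CTR 5, and 25.8, 25.4, 29.1, 24.5 and 26.1 in KO 1 to KO 5. The highest KO library lay below the lowest CTR library, as it did for 4.55% of all genes, and 7.8% of all genes had no overlap in either direction. The log2 fold change was -0.42 (SE 0.09, edgeR adjusted p = 0.0273), or 1.34-fold lower in KO. It was -0.42 without KO 5 (adjusted p = 0.0440) and -0.37 without CTR 4 and CTR 5 (adjusted p = 0.0298). The size stayed between -0.46 and -0.38 when any 1 library was left out. The call was lost without CTR 3, KO 1, KO 2 or KO 4 (edgeR adjusted p up to 0.0865). In those fits the calls over all genes were 121, 131, 62 and 127, against 520 with all libraries.

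Among the genes of SREBP2 and its control, 5 of 6 were higher in KO in value and none passed. Srebf2 (ENSMUSG00000022463) had 198, 237, 200, 163 and 192 CPM in CTR 1 to CTR 5, and 217, 204, 219, 212 and 255 CPM in KO 1 to KO 5. CTR 2 lay above 4 of the KO libraries, so the genotypes overlapped. Its log2 fold change was 0.16 (SE 0.10, 95% interval -0.07 to 0.39, edgeR adjusted p = 0.398), and 0.07 without CTR 4 and CTR 5 (adjusted p = 0.686).

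Mbtps1 (ENSMUSG00000031835), the first of the proteases that cut SREBP2, had 54.5, 47.1, 45.1, 36.2 and 47.9 CPM in CTR 1 to CTR 5, and 61.2, 60.4, 57.8, 55.3 and 63.8 CPM in KO 1 to KO 5. All KO libraries lay above all CTR libraries, by a margin between CTR 1 and KO 4 of under 1 CPM, and 3.25% of all genes separated in this direction. The log2 fold change of 0.37 (SE 0.10, 95% interval 0.14 to 0.60) missed the threshold with an edgeR adjusted p of 0.0686. It was 0.29 without CTR 4 and CTR 5 (adjusted p = 0.0554), and the DESeq2 adjusted p with all libraries was 0.0167. Mbtps2, the gene of the second protease, had a log2 fold change of 0.25 (SE 0.15, edgeR adjusted p = 0.352), and 0.06 (adjusted p = 0.748) without CTR 4 and CTR 5.

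Scap, the escort of SREBP2, had 0.19 on the log2 scale (SE 0.11, edgeR adjusted p = 0.314), and KO 5 was the lowest KO library with 46.8 CPM, against 51.9 to 61.6 CPM in the others. Insig1 (ENSMUSG00000045294) stood between 94.6 and 118 CPM in CTR, between 93.9 and 112 CPM in KO 1 to KO 4, and at 164 CPM in KO 5. Its log2 fold change was 0.13 (SE 0.14, edgeR adjusted p = 0.629) and -0.04 without KO 5. Insig2, its relative, had 20.8 to 29 CPM in CTR and 24 to 25.3 CPM in 4 KO libraries, with 13.1 CPM in KO 2. Its log2 fold change was -0.11 (SE 0.17, edgeR adjusted p = 0.732), and 0.03 without KO 2.

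**Figure D3:**
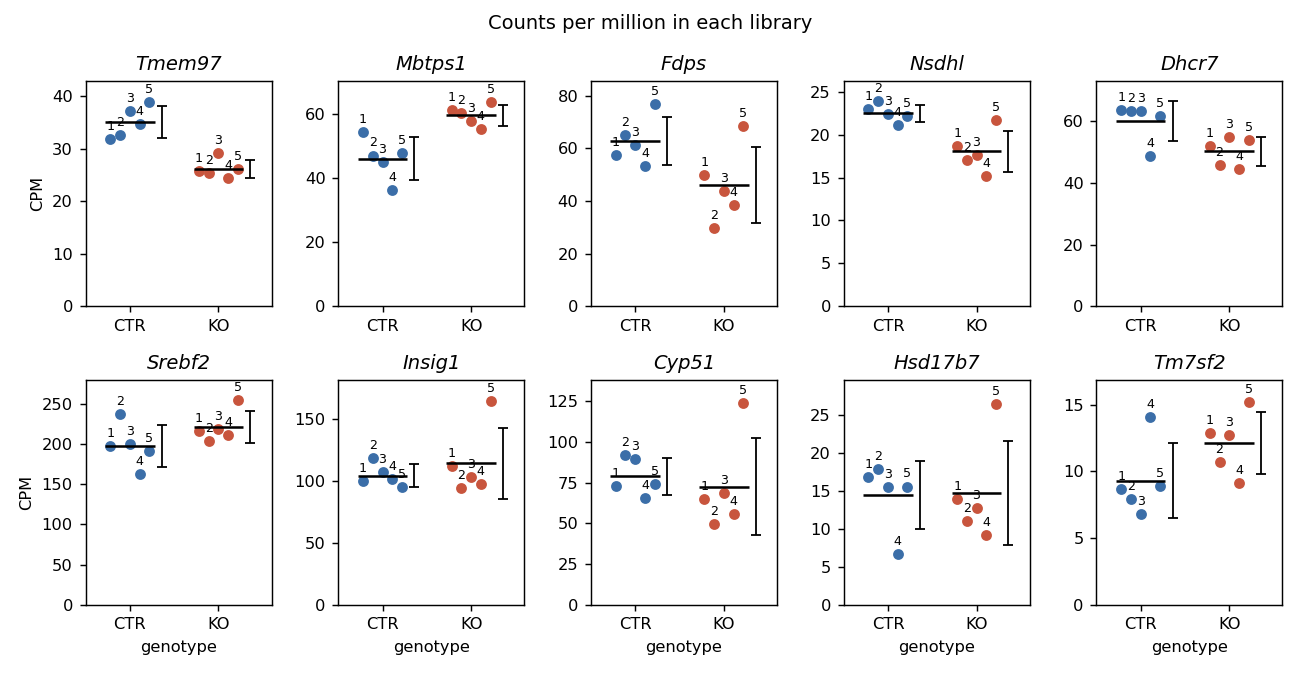
CPM of 10 members in each library (points, numbered by replicate), with the mean (bar) and SD (whisker) of 5 CTR and 5 KO libraries, on axes that start at 0. The genotypes do not overlap for Tmem97 and Mbtps1. KO 5 lies above every other library for Mbtps1, Srebf2, Insig1, Cyp51, Hsd17b7 and Tm7sf2.

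Of the 8 enzymes from acetyl-CoA to the isoprenoids, 6 had lower values in KO, and none passed in the fit of all libraries. Fdps (ENSMUSG00000059743), which makes farnesyl diphosphate, the branch point to sterols and prenylated proteins, had 57.6, 65.2, 61.4, 53.2 and 76.9 CPM in CTR 1 to CTR 5. Its KO libraries had 49.7, 29.7, 43.7, 38.5 and 68.5 CPM in KO 1 to KO 5. KO 1 to KO 4 lay below every CTR library, while KO 5 lay above all but 1 of them. The log2 fold change was -0.45 (SE 0.19, 95% interval -0.86 to -0.04, edgeR adjusted p = 0.190), and -0.64 (SE 0.16, adjusted p = 0.0471) without KO 5.

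Hmgcs1 had between 121 and 194 CPM in CTR, between 133 and 163 CPM in KO 1 to KO 4, and 232 CPM in KO 5, the highest of all, and its log2 fold change was 0.07 (SE 0.17), and -0.10 without KO 5. Idi1, the isopentenyl diphosphate isomerase gene, ranged from 15.3 CPM in CTR 3 to 39.3 CPM in CTR 2, a spread within CTR that spans every KO library. Acat2 (acetyl-CoA acetyltransferase), Mvk (mevalonate kinase), Mvd and Ggps1 had log2 fold changes between -0.11 and -0.01. Mvk had -0.11 (SE 0.12, edgeR adjusted p = 0.644), and 0.02 without CTR 5, its highest library. Ggps1 had -0.08 (SE 0.12, edgeR adjusted p = 0.727). Pmvk, the phosphomevalonate kinase gene, had 0.23 (SE 0.18, edgeR adjusted p = 0.476), and 0.52 (SE 0.13, adjusted p = 0.0317) without CTR 4 and CTR 5. CTR 5 was its highest library, at 13.2 CPM.

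Of the 12 enzymes from squalene on, 6 were higher and 6 lower in value, and none passed in the fit of all libraries. Nsdhl (ENSMUSG00000031349), a sterol dehydrogenase, had 23, 23.9, 22.4, 21.2 and 22.2 CPM in CTR 1 to CTR 5, and 18.7, 17.1, 17.6, 15.2 and 21.7 CPM in KO 1 to KO 5. Its KO libraries lay below all of CTR apart from KO 5, which overlapped CTR 4. The log2 fold change was -0.32 (SE 0.10, edgeR adjusted p = 0.0980), and -0.40 (SE 0.10, adjusted p = 0.0484) without KO 5.

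Dhcr7 (ENSMUSG00000058454), the dehydrocholesterol reductase of the last step, stood between 61.7 and 63.7 CPM in 4 CTR libraries and at 48.7 CPM in CTR 4. Its KO libraries stood between 44.7 and 54.8 CPM, so that CTR 4 alone overlapped them. The log2 fold change was -0.26 (SE 0.10, edgeR adjusted p = 0.158), and -0.34 (SE 0.08, adjusted p = 0.0327) without CTR 4 and CTR 5. Leaving out CTR 4 alone gave -0.33 (edgeR adjusted p = 0.0383).

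Cyp51 (ENSMUSG00000001467), the lanosterol demethylase, had 73.1, 91.8, 89.7, 65.5 and 74.2 CPM in CTR 1 to CTR 5, and 64.7, 49.4, 68.6, 55.9 and 124 CPM in KO 1 to KO 5. Hsd17b7 (ENSMUSG00000026675), a ketosteroid reductase, had 16.9, 17.9, 15.5, 6.69 and 15.6 CPM in CTR 1 to CTR 5, and 14, 11.1, 12.7, 9.17 and 26.5 CPM in KO 1 to KO 5. In both genes KO 5 was the highest library of all. For Cyp51, KO 1, KO 2 and KO 4 lay below every CTR library and KO 3 lay above CTR 4 alone, and for Hsd17b7 they lay below every CTR library but CTR 4. The log2 fold change of Cyp51 was -0.12 (SE 0.22, edgeR adjusted p = 0.780) with all libraries and -0.40 (SE 0.13, edgeR adjusted p = 0.111) without KO 5. That of Hsd17b7 was 0.01 (SE 0.30, edgeR adjusted p = 0.985) and, without KO 5, -0.31 (SE 0.25, adjusted p = 0.499).

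Lss had a log2 fold change of -0.16 (SE 0.19, edgeR adjusted p = 0.649), and -0.37 (SE 0.15, edgeR adjusted p = 0.169) without KO 5. Tm7sf2 had 0.38 (SE 0.20, edgeR adjusted p = 0.281), and 0.63 (SE 0.17, adjusted p = 0.0452) without CTR 4 and CTR 5, or 0.58 (adjusted p = 0.0481) without CTR 4 alone. CTR 4 was its highest CTR library at 14.1 CPM, against 6.83 to 8.91 CPM in the others. The other sterol enzymes, Fdft1 (squalene synthase), Sqle (squalene epoxidase), Lbr (a lamin receptor that is also a sterol reductase), Msmo1 (a methylsterol oxidase), Ebp (a sterol isomerase) and Sc5d (a sterol desaturase), had log2 fold changes between -0.07 and 0.19. Stard4, which encodes a sterol carrier protein, had 0.04 (SE 0.15, edgeR adjusted p = 0.898).

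KO 5 was the highest of the 10 libraries for 16 of the 28 members, while over all genes tested it was the highest for 10.3%. Among the sterol enzymes this held for 8 of 12, among SREBP2 and its control for 4 of 6, and among the mevalonate and isoprenoid enzymes for 3 of 8. The ratio of KO 5 to the mean of the other 4 KO libraries had a median of 1.32 over the members, and was 2.26 for Hsd17b7, 2.09 for Cyp51, 1.77 for Lss and 1.75 for Fdft1. It was 0.998 for Tmem97 and 0.814 for Scap. The members took 0.201% of all counts in KO 5 and between 0.129% and 0.171% in the other 9 libraries. Gnas stood at 38.8 CPM in KO 5, within the range of the other KO libraries.

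**Figure D4:**
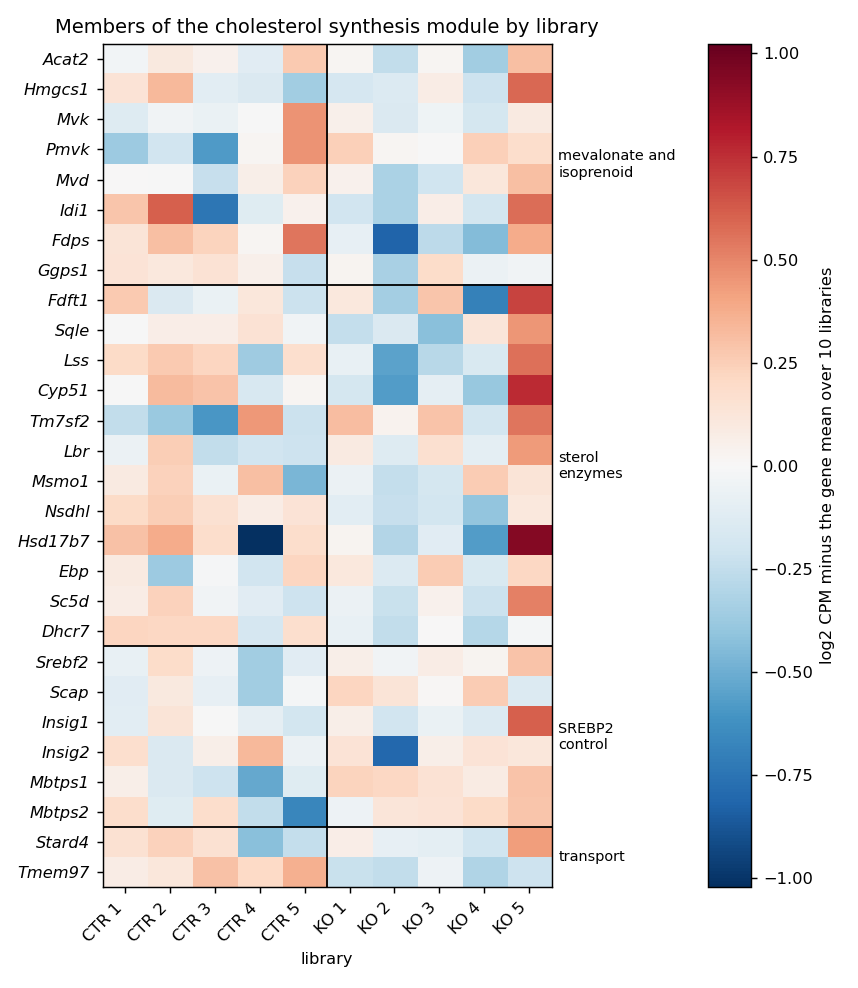
Log2 CPM of each member in each library minus its mean over the 10 libraries (red above, blue below), with rows in order of role and the line between CTR and KO. The KO 5 column is red for most sterol enzymes, Hmgcs1 and Insig1, KO 2 is blue for Fdps, Lss, Cyp51 and Insig2, and the Tmem97 row turns from red to blue at the line.

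The score of a library was the mean over members of the log2 CPM minus each member's mean over the 10 libraries. It was 0.058, 0.103, -0.031, -0.102 and -0.003 in CTR 1 to CTR 5, and 0.009, -0.226, -0.007, -0.137 and 0.336 in KO 1 to KO 5. KO held both the highest library and the lowest pair, with CTR in between. The means were 0.005 ± 0.08 in CTR and -0.005 ± 0.213 in KO (SD, n = 5 each), a difference of -0.01 that was smaller than either spread. Without KO 5 the difference was -0.095, and the KO score was -0.09 ± 0.112 over 4 libraries. The score of the 12 sterol enzymes ranged from -0.095 to 0.11 in CTR and from -0.259 to 0.446 in KO. The score of the 6 genes of SREBP2 and its control was -0.081 ± 0.111 in CTR and 0.081 ± 0.12 in KO. That difference of 0.163 was 0.084 without CTR 4 and CTR 5, the lowest libraries, and 0.05 without KO 5 as well. The score of the enzymes of the mevalonate and isoprenoid steps was 0.031 ± 0.14 in CTR and -0.031 ± 0.216 in KO.

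Without KO 5, 20 of 28 members were lower in value and 8 higher, with a median log2 fold change of -0.104, beside -0.011 over all genes tested and 51.5% of all genes below 0. That fit called 3.99% of all genes. It called Fdps, Nsdhl and Tmem97 lower, against 2.17% of all genes, and no member higher, against 1.82%, where the edgeR adjusted p was 0.111 for Mbtps1 and 0.200 for Scap. Without CTR 4 and CTR 5, where 8.76% of all genes were called, it called Pmvk and Tm7sf2 higher, against 5.13% of all genes, and Dhcr7 and Tmem97 lower, against 3.63%. Without all 3 of these libraries, a setting added after the data were seen, it called 7 members lower (Fdps, Lss, Cyp51, Nsdhl, Hsd17b7, Dhcr7 and Tmem97), against 5.59% of all genes, and Pmvk higher, against 7.51%. There the log2 fold change was -0.50 for Cyp51 (SE 0.13, edgeR adjusted p = 0.0326), -0.47 for Lss (SE 0.11, adjusted p = 0.0269) and 0.02 for Srebf2 (SE 0.08, adjusted p = 0.913). These 3 libraries were singled out by their values, so the calls without them describe the remaining 7 and are no independent support.

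The members' values were also compared between libraries of the same genotype. The median Pearson correlation over pairs of members was 0.621 within KO and 0.097 within CTR, over 5 libraries each, and the difference was not tested. KO 5 was the highest KO library for 20 of the 28 members, against 28.3% of all genes tested. The median within KO was not computed without KO 5, nor over all pairs of genes. After each genotype's mean was removed, the pooled correlation had a median of 0.308 over the 378 pairs of members and 293 pairs lay above 0, while the median over all pairs of genes tested was 0. It was 0.484 over pairs of sterol enzymes, and 0.2 over all pairs of members without KO 5. All pairs share the same 10 libraries and their depth, so this is a description. The correlation with Srebf2 was highest for Stard4 at 0.87, Hsd17b7 at 0.86 and Lss at 0.82, and was 0.76 for Hmgcs1, 0.77 for Cyp51 and 0.69 for Nsdhl. It reached at least 0.6 for 14 of the other 27 members, and for 10 of 27 without KO 5. It was below 0 for 4 of 27, and for 10 of 27 without KO 5, where the lowest was -0.62 for Tm7sf2. The shares of all genes at these correlations with Srebf2 were not computed. With all libraries the correlation with Srebf2 was -0.13 for Tmem97, -0.21 for Pmvk and -0.28 for Tm7sf2, the lowest. Tmem97, the member that fell in KO, thus did not vary between libraries with most of the others, and its median correlation with them was -0.04.

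**Figure D5:**
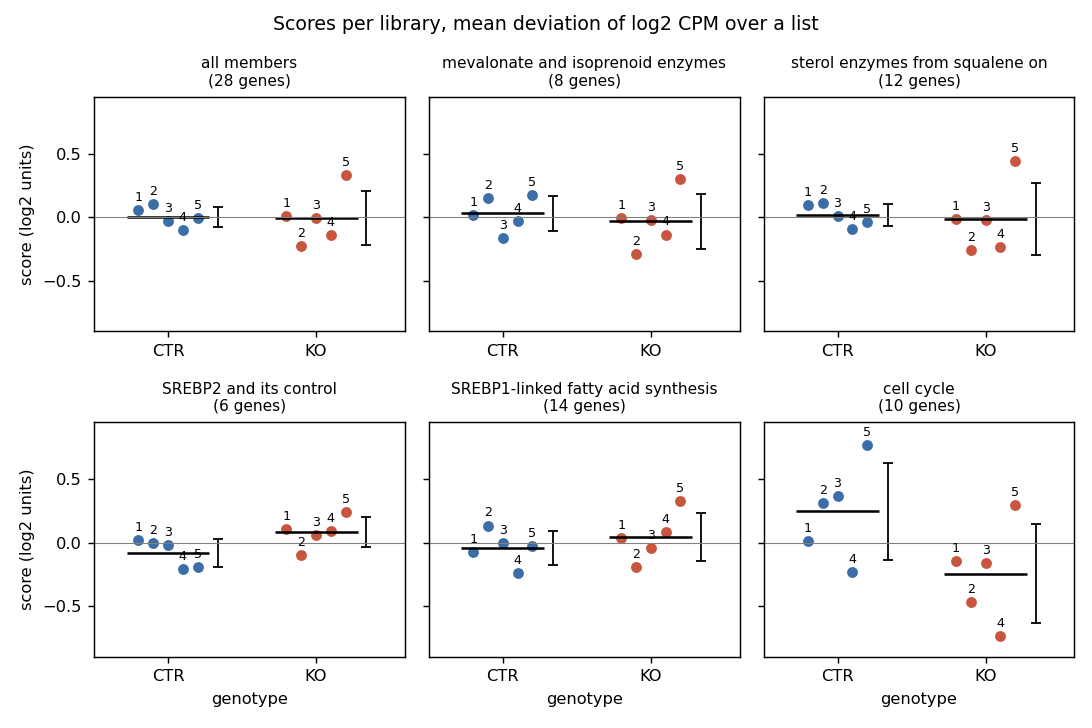
Scores of 6 gene lists in each library (points, numbered by replicate), in log2 units on 1 shared axis, with the mean (bar) and SD (whisker) of 5 CTR and 5 KO libraries. KO 5 is the highest library for all members, the mevalonate and sterol enzymes, SREBP2 control and fatty acid synthesis, and the highest KO library for the cell cycle list.

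In other lists near the pathway, the counts stand beside 3.94% of all genes called and 21.9% at an unadjusted p under 0.05. Of 13 genes of isoprenoid use and protein prenylation, none was called by edgeR, and 2 were lower and 0 higher at an unadjusted p under 0.05. Of 20 genes of SREBP processing and sterol-regulated degradation, none was called by edgeR, and 3 were lower and 2 higher at an unadjusted p under 0.05. The median log2 fold change of each list was 0.01. Srebf1, the gene of the related factor of fatty acid synthesis, had 0.07 (SE 0.09, edgeR adjusted p = 0.689), at 71.3 CPM in KO 5 against 67.7 to 81.5 CPM in the other KO libraries. Of 14 tested genes of fatty acid synthesis linked to SREBP1, none was called higher and Elovl1, a fatty acid elongase gene, fell from 119 ± 12.7 to 90.4 ± 9.01 CPM (-0.40, SE 0.10, edgeR adjusted p = 0.0462). Of 2 tested oxysterol enzymes, none was called by edgeR, and 0 lay at an unadjusted p under 0.05.

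The fatty acid synthesis list stood highest in KO 5 as well, where 8 of its 14 genes had their highest value. Its summed level was 1120 CPM in KO 5, and at most 842 CPM in any CTR library. Fasn, the fatty acid synthase gene, stood at 41.9 CPM in KO 5, between 11.2 and 15.1 CPM in the other KO libraries and between 10.9 and 33.8 CPM in CTR. Scd2, a stearoyl-CoA desaturase gene, stood at 420 CPM in KO 5 and between 130 and 241 CPM in all others.

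The cell cycle list also moved with the sterol enzymes among the KO libraries. Its score was -0.145, -0.47, -0.165, -0.738 and 0.293 in KO 1 to KO 5, with KO 2 and KO 4 lowest and KO 5 highest, as for the sterol enzymes. In CTR it was 0.015, 0.31, 0.367, -0.235 and 0.768, where CTR 5 was highest and the sterol enzymes were not. All 10 of its genes were tested and none was called by edgeR, with 3 lower, against 11.9% of all genes, and 1 higher, against 10%, at an unadjusted p under 0.05. Pcna, the replication clamp gene, had 151 ± 22.2 CPM in CTR and 196 ± 11 CPM in KO, and the other 9 had lower values in KO. The median log2 fold change of the list was -0.52, and -0.72 without KO 5, where Birc5, a gene of cell division, was called lower (edgeR adjusted p = 0.0486). Their summed level was 202 to 265 CPM in CTR and 216 to 275 CPM in KO, most of it from Pcna. The part of cell cycle activity in the members' values was not tested.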

How the data were processed

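The study measured RNA of 5 CTR and 5 KO libraries of cultured macrophages. The authors deposited raw counts per Ensembl gene and FPKM values in 1 table. Per the submitters' processing notes, CASAVA 1.8, HISAT2, SAMtools 1.3.1 and edgeR were used with the build GRCm39. The sources used here do not give the read counter, annotation or strand setting. Without strand, reads of overlapping genes cannot be told apart. Columns were assigned by the library name in the labels, and symbols by Ensembl identifier (191 of 53465 genes had none, with 0.0403% of counts).

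The tests were run on these counts in edgeR 4.0.16 (R 4.3.3): filterByExpr, TMM scaling, quasi-likelihood F test, two-sided, genotype as the only term, Benjamini-Hochberg adjustment over the 13203 genes tested, threshold 0.05. CPM used TMM-scaled totals, and scores used log2 CPM with a prior count of 2. Standard errors are the absolute log2 fold change over the root of F. The deposited FPKM served for levels between genes and, with the counts, for gene lengths. Replicate numbers were not treated as pairs. All pairs of replicates differed beyond sampling noise, with a chi-square per degree of freedom of at least 14.4.

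The members and lists were chosen with earlier results of these data known. All members are named, with full values for those that passed, those with the 3 lowest p, Srebf2 and those with a library far from its group. Srebf1, Fasn, Scd2, Mmp8, Retnlg, Pcna and Birc5 were named after their values were seen, as were members described for their values without KO 5 or CTR 4 and CTR 5. No coordinates of the deposited build are given, and promoter sequences are from RefSeq on GRCm38.p6. Alternatives were other scalings, filters and tests (DESeq2 1.42.0, limma 3.58.1 voom with quality weights), a replicate block, libraries left out and a length and GC trend removed (mgcv 1.9.3).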

Additional observations from a re-analysis of the deposited data

Results flagged for a closer look

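Of 66 sets of 5 values (each member and each score of the module in each genotype), 10 held a library whose gap to its nearest neighbour was large for the range of its group, by Dixon's criterion with a critical value of 0.71. Chance flags about 1 in 20 such sets, and members share libraries, so the sets are not independent. In KO, KO 5 was far above the others for Cyp51 (124 CPM, next 68.6), Hsd17b7 (26.5 CPM, next 14) and Insig1 (164 CPM, next 112), and KO 2 was far below for Insig2 (13.1 CPM, next 24). In CTR, CTR 4 was far below for Lss (22.2 CPM, next 32.4), Hsd17b7 (6.69 CPM, next 15.5) and Dhcr7 (48.7 CPM, next 61.7), and far above for Tm7sf2 (14.1 CPM, next 8.91). CTR 5 was far above for Mvk (37.8 CPM, next 27.4) and far below for Ggps1 (10.4 CPM, next 12.8). None of the module's scores had such a library.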

How the results depend on the processing

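The median log2 fold change of the members ranged from -0.149 to 0.066 over the alternatives run. The setting without CTR 4, CTR 5 and KO 5 was chosen after seeing the data. Calls lower, among members and over all genes, were 1 and 279 in the main fit. They were 2 and 690 with the DESeq2 Wald test and 3 and 893 with voom. Without CTR 4 and CTR 5 they were 2 and 491, and 2 and 297 with the length and GC trend removed. Without CTR 4, CTR 5 and KO 5 they were 7 and 753. With 1 library left out, they ranged from 0 to 3 among members and from 30 to 384 over all genes. Calls higher, counted in the same way, were 0 and 241 in the main fit, 1 and 599 with DESeq2 and 3 and 1026 with voom. They were 2 and 694 without CTR 4 and CTR 5, and 1 and 1012 without CTR 4, CTR 5 and KO 5. With 1 library left out, they ranged from 0 to 1 among members and from 32 to 484 over all genes. Over all genes the number of calls, 520, was 261 without a filter on low counts, 1289 with DESeq2, 1919 with voom, 1185 without CTR 4 and CTR 5 and 1765 without all 3, and ranged from 62 (without KO 2) to 868 (without CTR 4). The median correlation between members, 0.308, was 0.44 without CTR 4 and CTR 5 and ranged from 0.2 (without KO 5) to 0.373 (without CTR 4). Hsd17b7 turned from 0.01 to -0.51 without CTR 4, CTR 5 and KO 5. The cause of these changes was not tested.

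With the replicate number as a block, edgeR called 104 genes and 0 members lower, and Tmem97 had -0.42 with an adjusted p of 0.0738. Across genes, the correlation of residuals between libraries of equal number was -0.126 to 0.0582. In either genotype, 0 of 5 libraries correlated best with their own number. The labels do not say whether equal numbers mark a shared origin, and 5 libraries per genotype cannot settle it. Of 588 values of single members under other settings, 561 stayed on the same side of the threshold and 5 lost a call. Another 21 became calls with the sign kept, and 1, that of Hsd17b7, became a call with the sign changed. In 42 values, of 12 members, the sign changed, and 1 of these, that of Hsd17b7, was a call.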
